A study of Mus musculus with 11 samples.

Results

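Transcript levels of 10 genes that interferon-gamma is known to induce were compared between tumor-associated and splenic macrophages. The mice carried Lewis lung carcinoma cells grafted under the skin. The genes were chosen by name: the CXCR3 ligands Cxcl9 and Cxcl10, the guanylate-binding proteins Gbp2, Gbp3, Gbp5 and Gbp7, the immunity-related GTPases Irgm1, Irgm2 and Igtp, and the transcription factor Irf1. All 10 were among the 35597 genes of the table that holds both kinds of macrophage, and all 10 passed the filter on low reads that left 14168 genes for testing. The chemokines and Gbp2 were the genes with the largest difference: on average Cxcl10 was 37.4-fold, Cxcl9 28.0-fold and Gbp2 6.45-fold higher in tumor-associated macrophages than in splenic macrophages. Gbp7 was 2.68-fold higher, and the other 6 genes, with ratios of means between 1.14 and 2.34, did not pass the test when all 7 libraries were used.

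The mice were C57BL/6, 6 to 8 weeks old, and had received 500000 LLC cells, a Lewis lung carcinoma line of the same strain, under the skin. On day 14, macrophages were sorted by flow cytometry and their total RNA was sequenced. WT_TAM denotes tumor-associated macrophages, taken from the tumor with the gate CD45+ Ly6G- Ly6C- CD11b+ F4/80+ (4 libraries). WT_SP denotes splenic macrophages, taken from tumor-bearing mice with the gate CD45+ TCRβ- Ly6G- Ly6C- CD11blo F4/80+ (3 libraries). Both groups carried Sin1fl/fl without Cre, so the floxed allele of the mTOR complex subunit Sin1 was present on both sides of the comparison, and the 4 libraries of LysMCre;Sin1fl/fl mice were not used here. The sorts differ in their CD11b gate and in the exclusion of TCRβ, and no library from mice without a tumor was analysed here. Whether the libraries of a group come from different mice is not stated in the labels. A p-value here measures library-to-library spread, and that spread may be technical.

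Interferon-gamma, released mainly by T cells and NK cells, binds a receptor made of IFNGR1 and IFNGR2 and signals through the kinases JAK1 and JAK2. GAS elements, among them one in the Irf1 promoter, respond to this signal, and IRF1 in turn acts at ISRE elements of later genes. In macrophages the induced proteins include large GTPases that attack the vacuoles of intracellular microbes, and the chemokines CXCL9 and CXCL10, which draw cells bearing CXCR3, mainly activated T cells and NK cells.

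Sequence at the starts of these genes is shown because elements such as GAS and ISRE are usually found there. Windows from 250 bases before to 50 bases after the start site were taken from RefSeq (GRCm38.p6), where all 10 genes matched, with 12 windows in all because Gbp3 and Irf1 have a second start. Each window was searched on both strands for 3 motifs. The ISRE letters were GAAA, any 2 bases and GAAA, which read TTTC, any 2 bases and TTTC on the other strand. The GAS letters were TTC, any 3 bases and GAA, which read the same on both strands. The NF-kB letters were GGG, any 2 bases, TT, any base and CC, which read GG, any base, AA, any 2 bases and CCC on the other strand. The windows of the 3 genes with the highest fold are given in full, read along the gene's own strand, with the matches in capitals. The Cxcl9 window is chr5:92328030-92328329 on the minus strand, the Cxcl10 window chr5:92348840-92349139 on the minus strand, and the Gbp2 window chr3:142620413-142620712 on the plus strand.
Cxcl9: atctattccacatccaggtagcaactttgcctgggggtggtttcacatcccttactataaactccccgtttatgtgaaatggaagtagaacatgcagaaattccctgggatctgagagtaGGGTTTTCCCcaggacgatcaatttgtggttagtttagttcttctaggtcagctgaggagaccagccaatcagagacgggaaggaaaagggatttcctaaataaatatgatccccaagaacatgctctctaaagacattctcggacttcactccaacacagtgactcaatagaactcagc
Cxcl10: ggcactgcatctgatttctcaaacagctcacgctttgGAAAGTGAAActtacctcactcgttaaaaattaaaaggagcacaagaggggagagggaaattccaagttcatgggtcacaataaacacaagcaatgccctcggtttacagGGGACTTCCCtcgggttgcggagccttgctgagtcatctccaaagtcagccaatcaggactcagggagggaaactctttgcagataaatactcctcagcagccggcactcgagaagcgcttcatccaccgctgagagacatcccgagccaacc
Gbp2: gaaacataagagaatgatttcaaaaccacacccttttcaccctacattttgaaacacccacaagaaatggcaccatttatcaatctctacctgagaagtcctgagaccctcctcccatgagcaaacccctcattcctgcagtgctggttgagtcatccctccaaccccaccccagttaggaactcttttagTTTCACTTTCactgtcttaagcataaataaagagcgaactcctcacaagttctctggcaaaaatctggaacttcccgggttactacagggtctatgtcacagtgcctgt

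In these 3 windows, Cxcl9 held an NF-kB match whose first base is at -130 from the start site, and no ISRE or GAS letters. Cxcl10 held an ISRE match at -213 and an NF-kB match at -103, and Gbp2 held an ISRE match at -59. The most upstream ISRE match of the other genes, and the GAS match of Irf1, are given with the bases around them, again with the match in capitals and on the gene's strand. On the plus strand they lie at chr3:142559987-142560020 for Gbp3, chr3:142496757-142496790 for Gbp5, chr3:142530271-142530304 for Gbp7, chr11:58214901-58214934 for Irgm2, chr11:58199510-58199543 for Igtp and chr11:53769912-53769944 for Irf1. The stretch of Irgm1 lies at chr11:48871429-48871462 on the minus strand.
Gbp3: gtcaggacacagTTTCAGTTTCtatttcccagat
Gbp5: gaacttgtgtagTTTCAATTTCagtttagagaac
Gbp7: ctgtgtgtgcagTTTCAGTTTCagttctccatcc
Irgm1: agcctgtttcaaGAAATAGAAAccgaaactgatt
Irgm2: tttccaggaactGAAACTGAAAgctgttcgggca
Igtp: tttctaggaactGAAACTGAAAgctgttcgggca
Irf1: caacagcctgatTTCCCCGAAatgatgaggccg

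An ISRE match was found in 8 of the 12 windows, against 3.44% of all 32851 promoter windows. These windows belong to 8 of the 10 genes, the exceptions being Cxcl9 and Irf1. A GAS match was found in 5 of 12 windows, against 8.3% of all windows, for 5 of 10 genes (Gbp5, Gbp7, Irgm2, Igtp and Irf1). An NF-kB match was found in 3 of 12 windows, against 4.79% of all windows, for 3 of 10 genes (Cxcl9, Cxcl10 and Gbp5). The ISRE letters began at -59, -45 and -53 from the start in Gbp2, Gbp3 and Gbp7, and at -30, -64 and -34 in Irgm1, Irgm2 and Igtp. Those of Gbp5 and Cxcl10 lay farther out, at -165 and -213. In Irgm2 and Igtp a GAS match preceded the ISRE match, with its first base at -75 in Irgm2 and -45 in Igtp, and the stretches printed for these genes differ in 1 of 34 bases. Gbp3 and Irgm1 each held a second ISRE match that overlaps the first, at -39 and -24, and the second windows of Gbp3 and Irf1 held no match. A match describes letters only, and the genes had been picked as interferon-induced, so these counts are a description.

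**Figure D1:**
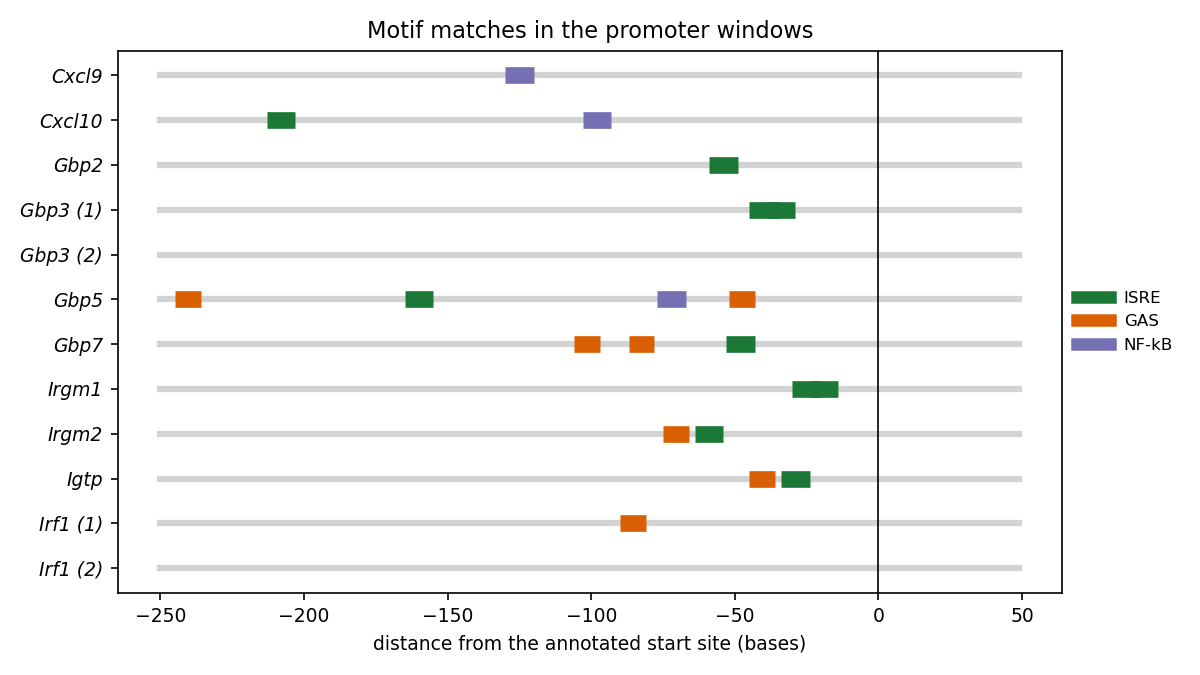
Matches to the 3 motifs in the 12 RefSeq windows of the 10 genes, 1 row per window, as blocks that span the matching bases, with the distance from the start site on the x axis (bases, 0 at the first transcribed base). Numbers in brackets tell the windows of Gbp3 and Irf1 apart. Most ISRE matches begin between -64 and -24, and those of Gbp5 and Cxcl10 lie farther out.

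On GRCm38 the genes lie on 3 chromosomes. The 4 Gbp genes lie within 144 kb of chromosome 3, with Gbp5 at chr3:142493978-142522344, Gbp7 at chr3:142530342-142550149, Gbp3 at chr3:142560026-142573209 and Gbp2 at chr3:142620602-142638008. Cxcl9 (chr5:92321347-92328079) and Cxcl10 (chr5:92346638-92348889) are neighbours within 27.5 kb of chromosome 5. Irgm1 (chr11:48861968-48871683), Irf1 (chr11:53770014-53778374), Igtp (chr11:58199556-58207591) and Irgm2 (chr11:58199618-58222782) are spread over 9361 kb of chromosome 11. In GENCODE M21, Igtp and Irgm2 overlap by 7974 bases on the same strand and share 162 exon bases. Under that annotation, reads in the shared bases cannot be assigned to 1 of them. The RefSeq window of Irgm2, chr11:58214727-58215026, lies beyond the end of Igtp, and no source used here says which annotation was used for counting. Both families hold close paralogs between which reads can be split. A gene on the opposite strand shares 133 exon bases with Cxcl10 (Art3) and 135 with Irf1 (Gm17334), and no source used here says whether the counting used strand.

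The 4 WT_TAM libraries held 13075950, 12317798, 12055900 and 7635971 reads, and the 3 WT_SP libraries 11813410, 10631513 and 11327505. Levels are given as CPM, the usual depth-scaled read level, each library's total having been multiplied by the authors' size factor, in the order of the replicate numbers. WT_TAM replicate 4 stood apart: it was the shallowest library, the mitochondrial leucyl-tRNA synthetase gene Lars2 took 5.57% of its reads against 0.113% to 0.184% in the other WT_TAM libraries and 0.408% to 0.471% in WT_SP, and its reads differed from those of the other WT_TAM libraries with a chi-square per degree of freedom of 201 to 237, against 19.2 to 65.2 among those 3. The share of mitochondrial reads was 1.12%, 6.58%, 2.00% and 5.79% in the 4 WT_TAM libraries and 0.838% to 1.09% in WT_SP, so WT_TAM replicate 2 was high in this measure too. Leaving out WT_TAM replicate 2 left 4 of the 10 genes called higher, where 2811 of 13811 tested genes were called higher. The part of the mitochondrial share in the results was not tested. Replicate 4 was the lowest WT_TAM library in 9 of the 10 genes, against 45.7% of all tested genes, and the highest for Cxcl9. Results on the 10 genes and the counts per list are therefore given with and without it, and what sets this library apart was not tested. That choice rests in part on the values of the 10 genes themselves. Leaving out the lowest WT_TAM library of a gene raises its fold change by construction.

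Cxcl9 and Cxcl10 encode chemokines that bind CXCR3. Cxcl9 had 235, 137, 234 and 417 CPM in WT_TAM, against 8.95, 8.57 and 9.90 CPM in WT_SP. The lowest WT_TAM library was far above the highest WT_SP library, and replicate 4 was the highest of the 4. The means were 256 ± 117 CPM in WT_TAM and 9.14 ± 0.685 CPM in WT_SP (SD, n = 4 and 3), and the log2 fold change was 4.62 ± 0.33 (SE; 95% confidence interval 3.87 to 5.38; limma adjusted p = 9.87e-06). Without WT_TAM replicate 4 it was 4.35 ± 0.20 (limma adjusted p = 4.14e-08). In bulk RNA, fewer cells of a type and less RNA per cell cannot be told apart. That holds for every gene below.

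Cxcl10 had 209, 170.0, 203 and 158 CPM in WT_TAM, against 4.72, 5.71 and 4.40 CPM in WT_SP. The WT_TAM libraries were close to each other here, replicate 4 included, and did not overlap with WT_SP. Means were 185 ± 24.7 CPM in WT_TAM and 4.95 ± 0.684 CPM in WT_SP, and the log2 fold change of 5.09 ± 0.18 had a 95% confidence interval of 4.67 to 5.51 (limma adjusted p = 4.71e-07). Leaving out WT_TAM replicate 4 gave 5.16 ± 0.14 (limma adjusted p = 6.70e-10). Among all tested genes, the fold change of Cxcl10 stood at the percentile 99.2 and that of Cxcl9 at 98.8.

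**Figure D2:**
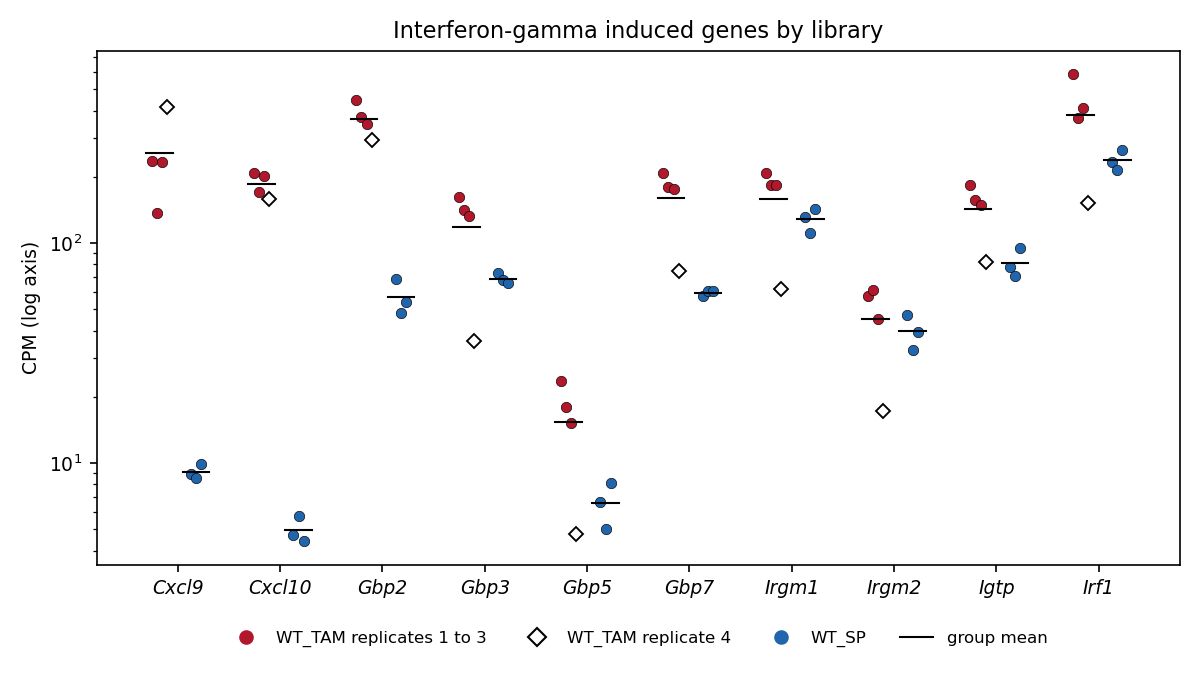
Level of each of the 10 genes in every library, as CPM on a log axis, with WT_TAM left of WT_SP, 1 point per library, a bar at the group mean and WT_TAM replicate 4 as an open diamond. Groups are apart for Cxcl9, Cxcl10, Gbp2 and Gbp7, and in the other 6 genes replicate 4 lies among or below the WT_SP points.

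The guanylate-binding proteins are large GTPases that gather on pathogen vacuoles and on cytosolic bacteria. Gbp2, which is recruited to vacuoles of Toxoplasma in mouse cells, had 448, 376, 349 and 295 CPM in WT_TAM, against 69.0, 48.1 and 53.8 CPM in WT_SP. No library of one group reached the other. The means were 367 ± 63.6 CPM in WT_TAM and 57.0 ± 10.8 CPM in WT_SP, with a log2 fold change of 2.68 ± 0.21 (95% confidence interval 2.21 to 3.15; limma adjusted p = 1.47e-05), and 2.78 ± 0.14 without WT_TAM replicate 4 (limma adjusted p = 5.95e-08).

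Gbp7, linked in mouse macrophages to the assembly of the NADPH oxidase, had 209, 179.9, 176 and 74.3 CPM in WT_TAM, against 57.6, 60.9 and 60.2 CPM in WT_SP. The 3 WT_SP libraries were nearly equal, and even the low WT_TAM replicate 4 lay above them. Its log2 fold change was 1.32 ± 0.34 (95% confidence interval 0.55 to 2.08; limma adjusted p = 0.0118), and 1.65 ± 0.10 without replicate 4 (limma adjusted p = 1.16e-07). Some of the Gbp7 exon bases (11.3%) are shared with Gm43802, an annotated gene on the same strand. Scaled by library total alone the log2 fold change was 0.84, with a limma adjusted p of 0.0853.

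Gbp3 had 163, 142, 133 and 35.8 CPM in WT_TAM, against 72.8, 67.9 and 65.6 CPM in WT_SP. Of the WT_TAM libraries, 3 lay above all of WT_SP and replicate 4 lay below all of it. With all libraries the log2 fold change was 0.57 ± 0.48 (95% confidence interval -0.52 to 1.67; limma adjusted p = 0.358), and without replicate 4 it was 1.08 ± 0.10 (limma adjusted p = 5.13e-06). Gbp5, which promotes activation of the NLRP3 inflammasome, had 23.5, 18.0, 15.2 and 4.76 CPM in WT_TAM, against 6.63, 5.02 and 8.07 CPM in WT_SP. The pattern was that of Gbp3: replicate 4, with 29 reads, was below WT_SP and the other 3 were above it. Its log2 fold change was 0.99 ± 0.49 (95% confidence interval -0.12 to 2.10; limma adjusted p = 0.127), and 1.46 ± 0.23 without replicate 4 (limma adjusted p = 0.000203).

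The IRGM proteins are GTPases that sit on the cell's own membranes and keep the effector GTPases of the family inactive there. Irgm1, also tied to autophagy and lysosome function, had 209, 184, 183 and 61.8 CPM in WT_TAM, against 131, 111 and 143 CPM in WT_SP. Replicates 1 to 3 of WT_TAM were above all WT_SP libraries and replicate 4 was below all of them. The log2 fold change was 0.18 ± 0.40 (95% confidence interval -0.74 to 1.09; limma adjusted p = 0.75), and 0.58 ± 0.11 without replicate 4 (limma adjusted p = 0.000829). Its sign turned under library total alone (-0.30), under quantile normalization (-0.017) and without WT_TAM replicate 1 (-0.0011).

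Irgm2 had 57.3, 61.3, 44.9 and 17.2 CPM in WT_TAM, against 47.2, 32.5 and 39.5 CPM in WT_SP. Here the groups overlapped even apart from replicate 4, since WT_TAM replicate 3 lay below WT_SP replicate 1. The log2 fold change was 0.05 ± 0.42 (95% confidence interval -0.90 to 1.00; limma adjusted p = 0.932), and 0.46 ± 0.16 without replicate 4 (limma adjusted p = 0.0267). Its sign was negative under 5 of the other settings, between -0.42 and -0.08. Igtp, also called Irgm3, had 183, 158, 149 and 81.8 CPM in WT_TAM, against 77.6, 70.8 and 95.4 CPM in WT_SP. Replicates 1 to 3 of WT_TAM stood clear of WT_SP, and replicate 4 fell inside the WT_SP range. The log2 fold change of 0.76 ± 0.28 (95% confidence interval 0.12 to 1.40) narrowly missed the threshold of 0.05 (limma adjusted p = 0.0536), and without replicate 4 it was 1.01 ± 0.13 (limma adjusted p = 4.22e-05).

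Irf1, the transcription factor that relays the interferon-gamma signal to ISRE elements, had 586, 371, 413 and 152 CPM in WT_TAM, against 233, 216 and 264 CPM in WT_SP. Replicate 1 was the highest WT_TAM library, and replicate 4 was below all of WT_SP while the other 3 were above it. Means were 381 ± 179 CPM in WT_TAM and 238 ± 24.6 CPM in WT_SP. The log2 fold change was 0.53 ± 0.40 (95% confidence interval -0.39 to 1.45; limma adjusted p = 0.316), and 0.92 ± 0.16 without replicate 4 (limma adjusted p = 0.000681).

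With all libraries, 4 of the 10 genes (Cxcl9, Cxcl10, Gbp2 and Gbp7) were called higher in WT_TAM, where 23.1% of the 14168 tested genes were called higher and 23.7% lower. None of the 10 was called lower by limma, none had an unadjusted p under 0.05 in that direction, and limma with voom weights called none lower either. The same 4 genes were those whose groups did not overlap, against 26.3% of all tested genes with every WT_TAM library above every WT_SP library and 29.9% with every one below. The median log2 fold change of the 10 genes was 0.88, against -0.07 over all tested genes. Without WT_TAM replicate 4, 10 of 10 were called higher, where 32.2% of 13895 tested genes were called higher and 33.5% lower, and the median was 1.27 for the 10 genes and -0.06 for all tested genes. More genes were called without this library over the whole table as well. Leaving out any other single library left 4 of the 10 genes called higher. Cxcl9, Cxcl10 and Gbp2 were called higher in all 18 settings run, and Gbp7 in 17 of them.

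**Figure D3:**
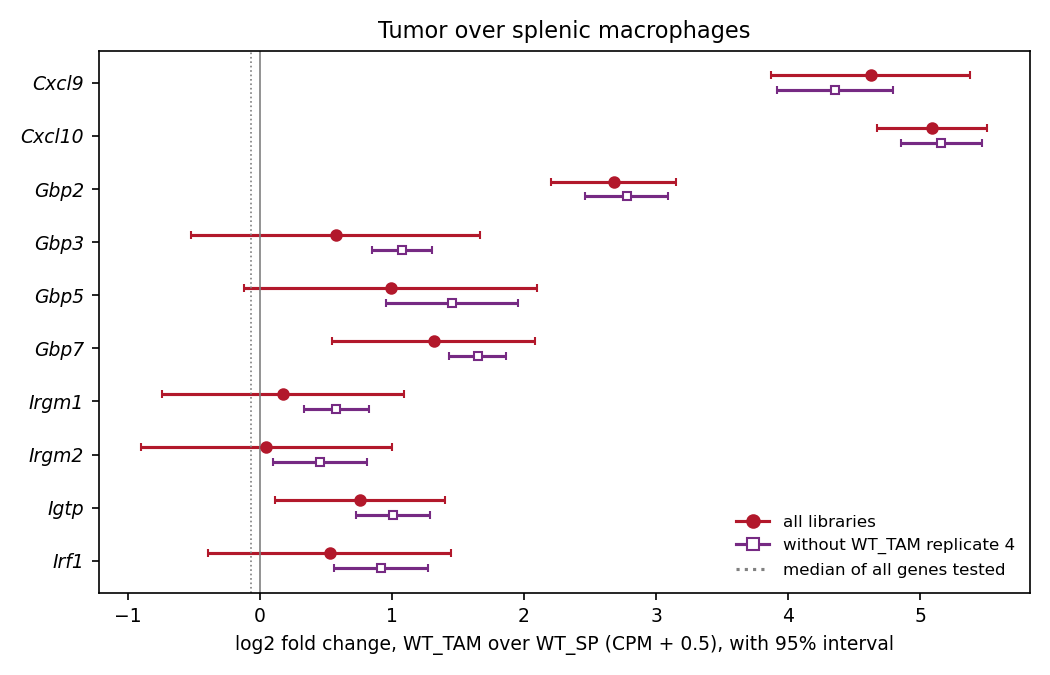
Log2 fold change of WT_TAM over WT_SP for each gene with its 95% confidence interval, using all 7 libraries and leaving out WT_TAM replicate 4. The intervals of Cxcl9, Cxcl10, Gbp2, Gbp7 and Igtp exclude 0 with all libraries, although the adjusted p of Igtp is 0.0536, and without replicate 4 all 10 intervals exclude 0.

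Levels were then set against each other per length, as RPKM (CPM per kb of gene length, ± SD over libraries). This was done for 9 of the 10 genes because no length could be inferred for Gbp5. The lengths were inferred from the deposited values as those that gave whole reads, at 887.5 bases for Cxcl10 and 2083 for Irf1. All annotated exon bases together are 2252 for Cxcl10 and 3976 for Irf1, so the order of the genes depends on the length used. Cxcl9 and Cxcl10 had the highest means of the 9 in WT_TAM, at 298 ± 136 and 209 ± 27.8 RPKM, and the lowest in WT_SP, at 10.6 ± 0.797 and 5.57 ± 0.771 RPKM. Irf1 followed in WT_TAM at 183 ± 85.8 RPKM and was the highest of the 9 in WT_SP at 114 ± 11.8 RPKM. The WT_TAM means of Cxcl9, Cxcl10 and Irf1 differed by less than the spread of Cxcl9 between libraries. Gbp2 was at 148 ± 25.6 RPKM in WT_TAM and 22.9 ± 4.33 RPKM in WT_SP, Irgm1 at 93.1 ± 38.6 RPKM in WT_TAM and 75.1 ± 9.50 RPKM in WT_SP, and Igtp at 70.5 ± 21.3 RPKM in WT_TAM and 40.1 ± 6.26 RPKM in WT_SP. Gbp7 and Gbp3 were at 53.8 ± 19.8 and 44.1 ± 21.0 RPKM in WT_TAM, against 20.03 ± 0.579 and 25.6 ± 1.38 RPKM in WT_SP. Irgm2 was the lowest of the 9 in WT_TAM at 13.1 ± 5.76 RPKM, and was at 11.5 ± 2.13 RPKM in WT_SP.

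Ratios of 2 genes within a library do not depend on how libraries are scaled, and 6 such ratios were computed per length. A group difference in such a ratio largely restates the difference between the fold changes of its 2 genes. The share of other gene pairs whose ratios do not overlap was not computed. Gbp2 stood at 2.98, 2.86, 2.83 and 8.93 times the level of Gbp3 in WT_TAM, against 1.02, 0.766 and 0.887 times in WT_SP. All WT_TAM libraries were above all WT_SP libraries, and replicate 4, the lowest WT_TAM library for both genes, had the highest ratio (exact permutation test, two-sided p = 0.0571, adjusted p = 0.0857). The smallest p that 4 against 3 libraries can give in this test is 0.0571, so the design cannot reach 0.05. The ratio of Gbp2 to Gbp7 averaged 2.92 in WT_TAM and 1.13 in WT_SP (geometric means), again without overlap and with the same exact p. Igtp stood at 0.742, 0.725, 0.686 and 1.12 times the level of Irgm1 in WT_TAM, against 0.499, 0.539 and 0.562 times in WT_SP, without overlap. Igtp to Irgm2 was likewise without overlap, at geometric means of 5.76 in WT_TAM and 3.51 in WT_SP, and both Igtp ratios had an exact permutation p of 0.0571 and an adjusted p of 0.0857.

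The other 2 ratios overlapped between the groups. Cxcl9 stood at 1.16, 0.834, 1.19 and 2.72 times the level of Cxcl10 in WT_TAM, against 1.96, 1.55 and 2.32 times in WT_SP (exact permutation p = 0.343, adjusted p = 0.4). With the inferred lengths, replicates 1 to 3 of WT_TAM had both chemokines at close to equal levels, and replicate 4 had the highest share of Cxcl9 of the 7 libraries. Irgm1 to Irgm2 had geometric means of 7.18 in WT_TAM and 6.58 in WT_SP (exact permutation p = 0.4).

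The rest of the pathway was read from the same fit, in lists of 76 further genes in the tested set. Of these, 23 were called higher and 13 lower in WT_TAM, with a median log2 fold change of 0.19, and without WT_TAM replicate 4 the counts were 37 higher and 14 lower with a median of 0.45. The shares of all tested genes against which these and the following list counts stand are the 23.1% higher and 23.7% lower given above, and 32.2% and 33.5% without replicate 4. Among 7 other guanylate-binding proteins, 2 were higher and 1 lower (median 0.41), and 3 were higher and 1 lower without replicate 4 (median 0.97). Gbp6 was higher at 31.0, 15.5, 24.0 and 8.37 CPM in WT_TAM, against 4.72, 4.86 and 7.11 CPM in WT_SP (log2 fold change 1.61 ± 0.42, adjusted p = 0.0128). Gbp11 was also higher (1.73 ± 0.46, adjusted p = 0.0143), at 5.91, 3.43, 4.98 and 1.15 CPM in WT_TAM against 0.846, 0.463 and 0.733 CPM in WT_SP. Gbp10, at 1.60, 0.490, 0.787 and 0 CPM in WT_TAM against 3.88, 2.63 and 3.01 CPM in WT_SP, was lower (-1.76 ± 0.46, adjusted p = 0.0127). Gbp10 is near the 3-read floor of 0.253 to 0.492 CPM in the WT_TAM libraries, and Gbp11 is near that of 0.212 to 0.232 CPM in WT_SP. Gbp2b differed widely inside both groups, with 74.8, 41.5, 15.5 and 3.77 CPM in WT_TAM and 80.2, 1.85 and 2.71 CPM in WT_SP. Gbp4 (0.41 ± 0.54, adjusted p = 0.563), Gbp8 (-0.32 ± 0.40, adjusted p = 0.536) and Gbp9 (-0.93 ± 0.66, adjusted p = 0.280) did not pass the test with all libraries. Of these, Gbp4 was called higher without replicate 4 (0.97 ± 0.16, limma adjusted p = 0.000381).

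Of 8 other immunity-related GTPases, 4 were called higher (median 0.49), and 5 without replicate 4 (median 0.79). Iigp1, an effector GTPase that loads onto parasite vacuoles, had 222, 164, 166 and 76.1 CPM in WT_TAM, against 26.3, 13.7 and 21.6 CPM in WT_SP. Every WT_TAM library was well above WT_SP, and the log2 fold change was 2.85 ± 0.37 (adjusted p = 0.000333). Gm4951 (2.17 ± 0.22, adjusted p = 6.09e-05), F830016B08Rik (1.68 ± 0.51, adjusted p = 0.0251) and Gm12250 (0.81 ± 0.28, adjusted p = 0.0413) were the other 3. F830016B08Rik was low, at 9.46, 4.02, 5.16 and 1.48 CPM in WT_TAM against 1.41, 0.618 and 1.03 CPM in WT_SP, where replicate 2 is near the read floor. The effectors Tgtp1 (0.04), Tgtp2 (0.16) and Ifi47 (-0.23) did not pass the test with all libraries and neither did Irgc1 (-0.01). Of these, Tgtp2 was called higher without replicate 4 (0.56 ± 0.14, limma adjusted p = 0.00448).

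The 2 further genes of the CXCR3 axis were split, 1 higher and 1 lower, with and without WT_TAM replicate 4. Cxcl11, the other CXCR3 ligand, was called higher, with 5.15, 3.72, 6.47 and 8.20 CPM in WT_TAM against 0, 0.232 and 0.220 CPM in WT_SP, where 1 library had no read and the others are at the 3-read floor of 0.212 to 0.232 CPM. No fold is given for it. The receptor Cxcr3 was lower, with 7.94, 3.72, 4.20 and 1.97 CPM in WT_TAM against 47.4, 34.9 and 33.9 CPM in WT_SP (log2 fold change -3.10 ± 0.39, adjusted p = 0.000251). The 11 T cell markers summed to 129 to 186 CPM in WT_TAM and 1902 to 2057 CPM in WT_SP, and the 8 NK cell markers to 73.0 to 172 CPM in WT_TAM and 491 to 592 CPM in WT_SP, with none at 0 in all libraries of a group. Their part in the Cxcr3 result was not tested.

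Of the 9 genes of the ligand and its signalling, 2 were higher and 1 lower (median 0.27), and 3 were higher and 2 lower without WT_TAM replicate 4 (median 0.27). Ifng itself had 9.37, 14.0, 16.9 and 7.38 CPM in WT_TAM, against 5.29, 14.2 and 10.1 CPM in WT_SP, and the groups overlapped (log2 fold change 0.29 ± 0.39, 95% confidence interval -0.59 to 1.18, adjusted p = 0.572). Ifngr2, the signalling chain of the receptor, had 159, 167, 181 and 144 CPM in WT_TAM, against 78.4, 72.2 and 80.0 CPM in WT_SP, with a log2 fold change of 1.07 ± 0.16 (adjusted p = 0.000648). Ifngr1, the ligand-binding chain, was at 0.27 ± 0.36 (adjusted p = 0.577), and at 0.63 ± 0.08 without replicate 4 (adjusted p = 3.85e-05). Socs1, a feedback inhibitor of the JAK kinases, was higher at 51.7 ± 14.0 CPM in WT_TAM against 14.1 ± 1.87 CPM in WT_SP (1.80 ± 0.25, adjusted p = 0.000420). Jak1 was lower at 304 ± 99.2 CPM in WT_TAM against 711 ± 26.7 CPM in WT_SP (-1.30 ± 0.30, adjusted p = 0.00711). Jak2 (0.34), Ptpn2 (0.03) and Pias1 (-0.90) did not pass the test with all libraries. Without replicate 4, Pias1 was lower (-0.53 ± 0.10, adjusted p = 0.000927).

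**Figure D4:**
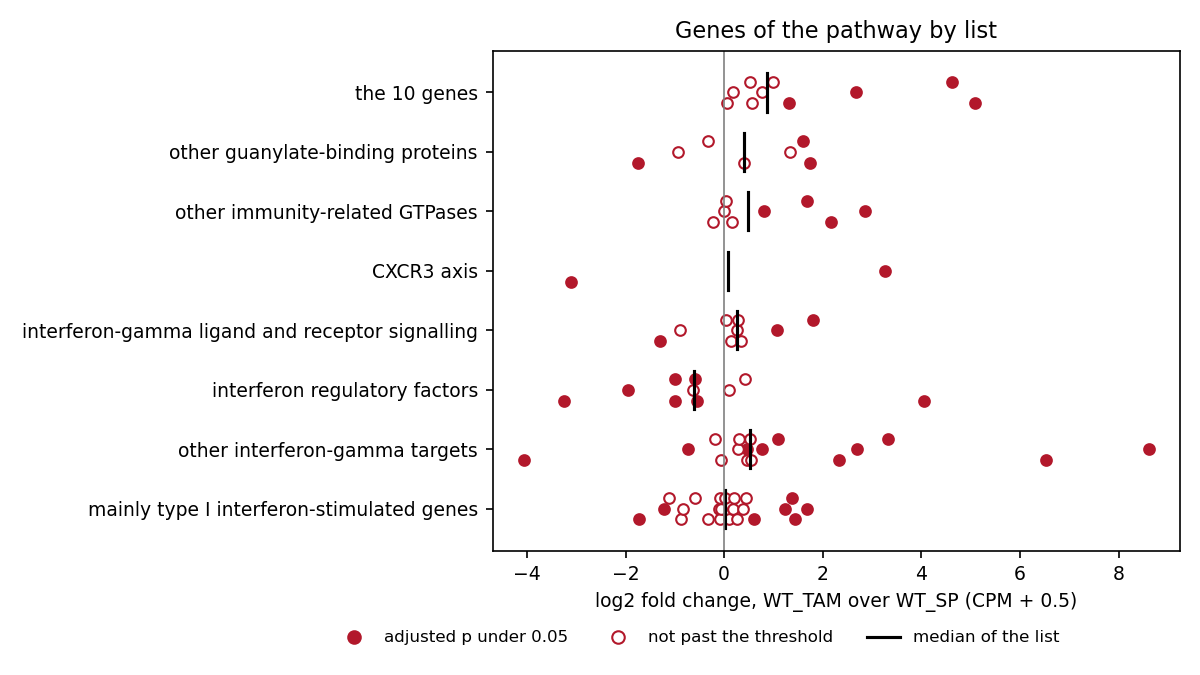
Log2 fold change of WT_TAM over WT_SP for each tested gene of the 10 and of the 7 pathway lists, 1 point per gene, filled where the adjusted p is under 0.05, with a line at the list's median. The points near 3.3 (Cxcl11) and 8.6 (Nos2) are fitted values against libraries at the read floor and are no measure of size, and the interferon regulatory factors are the list whose median lies clearly below 0.

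Among 10 interferon regulatory factors and related regulators, 1 was higher and 6 lower (median -0.61), and 2 higher and 6 lower without replicate 4 (median -0.56). The higher one was Batf2, a factor that partners with IRF1 in activated macrophages, with 61.1, 47.1, 57.2 and 55.6 CPM in WT_TAM against 2.61, 2.86 and 3.08 CPM in WT_SP. Its 4 WT_TAM libraries were close together, replicate 4 included, and the log2 fold change was 4.05 ± 0.19 (adjusted p = 9.37e-07). Irf4, which is high in B cells and plasma cells, was lower at 5.54 ± 2.16 CPM in WT_TAM against 53.9 ± 8.60 CPM in WT_SP (-3.25 ± 0.35, adjusted p = 9.97e-05). Ciita, the master regulator of MHC class II genes in B cells and other presenting cells, was lower at 86.3 ± 21.6 CPM in WT_TAM against 329 ± 23.9 CPM in WT_SP (-1.95 ± 0.22, adjusted p = 0.000125). Irf2 (-0.60), Irf3 (-0.99), Irf8 (-0.54) and Irf9 (-0.996) were lower as well, and Irf5, Irf7 and Nlrc5 did not pass the test with all libraries. Irf5 was called higher without replicate 4 (0.65 ± 0.09, limma adjusted p = 6.26e-05). The B and plasma cell markers summed to 41.3 to 218 CPM in WT_TAM and to 23878 to 30938 CPM in WT_SP, with none of the 9 at 0 in all libraries of a group, and their part in these results was not tested.

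Of 17 other known interferon-gamma targets, 8 were higher and 2 lower (median 0.53), and 13 higher and 2 lower without replicate 4 (median 0.58). Nos2, the inducible nitric oxide synthase, had 437, 566, 243 and 118 CPM in WT_TAM and 0.212, 0.232 and 0.293 CPM in WT_SP, where each library is at or near the 3-read floor, so no fold is given. Fcgr1, the high-affinity IgG receptor, was at 221, 285, 275 and 272 CPM in WT_TAM against 31.9, 23.0 and 22.8 CPM in WT_SP (3.33 ± 0.19, adjusted p = 2.54e-06). Cd274, which encodes the checkpoint ligand PD-L1, was at 474, 438, 388 and 64.3 CPM in WT_TAM against 46.3, 57.8 and 54.9 CPM in WT_SP (2.34 ± 0.64, adjusted p = 0.0161), and its replicate 4 was far below the other 3. Slamf8 (2.70 ± 0.23, adjusted p = 2.73e-05) and Upp1 (6.53 ± 0.40, adjusted p = 3.90e-06) were also higher. Upp1 had 154, 210, 145 and 255 CPM in WT_TAM against 3.17, 1.54 and 0.587 CPM in WT_SP, where replicate 3 is near the read floor. Ido1 was called higher as well (adjusted p = 0.0119), with 1.27, 1.76, 1.22 and 1.64 CPM in WT_TAM against 0.282, 0.772 and 0.293 CPM in WT_SP, where it is near the read floor, so no fold is given. Vcam1, which marks red pulp macrophages, was lower (-4.06 ± 0.20, adjusted p = 1.38e-06), as was Serpina3g (-0.73 ± 0.20, adjusted p = 0.0157).

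In 23 genes induced mainly by type I interferon, 5 were higher and 2 lower (median 0.03), and 10 higher and 2 lower without replicate 4 (median 0.45). The higher ones were Oas1a (1.24 ± 0.15), Oasl2 (1.44 ± 0.40), Ifi205 (1.38 ± 0.38), Ifi204 (1.68 ± 0.24) and Zbp1 (0.60 ± 0.21), with adjusted p between 0.000186 and 0.0400. Ddx58, the RNA sensor RIG-I, was lower (-1.73 ± 0.40, adjusted p = 0.00734), and so was Isg20 (-1.22 ± 0.27, adjusted p = 0.00545). The genes that did not pass the test lay on both sides of 0. Ifit1, Isg15, Mx1 and Rsad2 had log2 fold changes of 0.19, 0.44, 0.10 and 0.39. Cmpk2, Mx2, Ifit3 and Rtp4 had log2 fold changes of -1.12, -0.87, -0.83 and -0.60. Without replicate 4, Ifit1 and Mx1 were among those called higher (limma adjusted p = 0.0139 and 0.0197).

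The sorted populations differed in more than the interferon genes. The 11 macrophage markers summed to 36235 to 55936 CPM in WT_TAM and 5151 to 5458 CPM in WT_SP, a sum dominated by Lyz2. The F4/80 gene Adgre1 ranged over 295 to 707 CPM in WT_TAM and 276 to 341 CPM in WT_SP, and the receptor gene Csf1r over 1049 to 2161 CPM in WT_TAM and 960 to 1244 CPM in WT_SP. The WT_TAM means of Adgre1 and Csf1r stood at 1.71 and 1.66 times the WT_SP means, without passing the test (adjusted p = 0.0733 and 0.0654). In both genes WT_TAM replicate 4 was the lowest WT_TAM library, as it was for 9 of the 10 interferon genes. The red pulp factor Spic was at 1.15 to 2.35 CPM in WT_TAM and 152 to 176 CPM in WT_SP. Dendritic cell markers summed to 56.4 to 179 CPM in WT_TAM and 622 to 672 CPM in WT_SP, monocyte markers to 1150 to 2579 CPM in WT_TAM and 1603 to 1822 CPM in WT_SP, and neutrophil markers to 116 to 334 CPM in WT_TAM and 988 to 2484 CPM in WT_SP. Fibroblast markers summed to 441 to 991 CPM in WT_TAM and 8.88 to 48.3 CPM in WT_SP, epithelial and tumor markers to 90.7 to 299 CPM in WT_TAM and 12.2 to 17.0 CPM in WT_SP. Cdh1 made up nearly all of the epithelial and tumor sum in WT_TAM, with a mean of 213 CPM in WT_TAM and 3.69 CPM in WT_SP, while Epcam was at 2.14 CPM in WT_TAM and 9.30 CPM in WT_SP and Cldn4 was at 0 in all WT_TAM libraries. Endothelial markers summed to 28.9 to 70.5 CPM in WT_TAM and 189 to 200 CPM in WT_SP, and Pecam1 made up most of that sum, with a mean of 46.1 CPM in WT_TAM and 189 CPM in WT_SP, while 5 of the 7 endothelial markers had the higher mean in WT_TAM. Erythroid markers summed to 172 to 772 CPM in WT_TAM and 995 to 4754 CPM in WT_SP. The part of these cell types in the levels of the 10 genes was not tested.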

How the data were processed

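RNA was measured in 4 WT_TAM and 3 WT_SP libraries, grouped and numbered by their titles. The build mm10 and the tools HTSeq, DESeq2, SAMtools, TopHat2, HISAT and HISAT2 are named, per the submitters' processing notes, without roles or versions. No source used here gives the strand setting or the annotation. The deposited values are named read counts but hold decimals and negative numbers, and were handled as a score. A deposited score was found to equal whole reads divided by gene length and scaled by library factors, and the reads were recovered within 0.0002 reads or 1e-07 of a value. The recovered reads were 99.95% to 99.99% of the depth implied by each library's scaling.

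WT_TAM and WT_SP were fitted together, without covariates, by limma 3.58.1 (R 4.3.3; trend, robust empirical Bayes) on log2(CPM + 0.5), a scale on which the change of a low gene is understated. No count model was run on the recovered reads. Genes entered the test if 3 or more libraries reached the CPM worth 10 reads in a library of median size, and if they had 15 or more reads overall. P-values are two-sided and adjusted by Benjamini-Hochberg over all genes tested, with a threshold of 0.05, and the fit was tested on simulated data. Ratios were compared by exact permutation tests over libraries, adjusted over the 6 ratios, and were not among the planned comparisons. The 3-read floor covers counting error only. The genotype table was not used for results.

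The 10 genes, the pathway lists, the marker lists and the motifs were chosen with earlier results of these data known. Named are the 10 genes, the other GTPases and signalling genes, and listed genes past the threshold with a log2 fold change over 1. Genes named outside this rule are Irf2, Irf3, Irf5, Irf7, Irf8, Irf9, Nlrc5, Serpina3g, Zbp1, Ifit1, Isg15, Mx1, Rsad2, Cmpk2, Mx2, Ifit3, Rtp4 and the markers and quality genes named, chosen after their values were seen. Acod1, the last of 18 listed targets, had no row under that symbol. Coordinates are from GENCODE M21 (GRCm38) and promoter windows from RefSeq (GRCm38.p6). Alternatives were other pseudocounts, no filter, other scalings, voom and array weights, the deposited values, a replicate block, and leaving out each library. The value of 1 listed signalling gene is not reported here.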

Additional observations from a re-analysis of the deposited data

How the results depend on the processing

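Of 169 alternative values of single genes among the 10, 139 kept direction and side of the threshold, 21 passed it newly, 1 fell short of it (Gbp7, library total alone) and 8 turned sign, in Irgm1 and Irgm2 only. Irgm1 was at -0.30 with library total alone, -0.017 with quantile normalization and between -0.0011 (without WT_TAM replicate 1) and 0.58 (without WT_TAM replicate 4) with 1 library left out. Irgm2 was at -0.42 with library total alone, -0.090 with the deposited values, at -0.145, -0.113 and -0.084 without WT_TAM replicate 2, WT_TAM replicate 1 and WT_SP replicate 2, and at 0.46 without WT_TAM replicate 4. Library total alone moved the median of all genes to -0.52 and the calls to 2134 higher and 5632 lower (27.5% higher, against 49.4% of 3274 and 3351 calls), with 3 of the 10 genes and 15 pathway genes higher.

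Array weights gave 10 of the 10 genes and 36 pathway genes higher, with 4654 of all 14168 genes higher and 4840 lower, and the deposited values gave 7 pathway genes lower. Igtp passed in 6 of 18 settings. Leaving out 1 library gave 4 to 10 of the 10 genes higher, 14 to 37 pathway genes higher and 9 to 14 lower, and 2502 to 4476 of all genes higher and 2506 to 4655 lower. The lowest pathway count came without WT_SP replicate 1 or 2 (14 each), the highest without WT_TAM replicate 4 (37). With the replicate block, 10 of the 10 genes and 37 pathway genes were higher, with 4517 of all genes higher and 4571 lower. WT_TAM replicate 4 is alone in its block there and so does not enter the fold changes. By construction they equal those without this library, for example 1.08 for Gbp3 and 0.58 for Irgm1. The block is thus no separate alternative to leaving that library out. Same-numbered libraries did not deviate together (correlations across genes 0.000484, -0.0939 and 0.0986), so the numbers were not taken as pairs. The cause of the other changes was not tested. Depth limits Gbp10, Gbp11, F830016B08Rik, Cxcl11, Ido1, Nos2 and Upp1, which are near the read floor in some libraries.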

Other observations

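The 4 WT_TAM libraries also appear in the table of the genotype comparison. Of the 40 values of the 10 genes there, 35 gave the same whole reads as in the table used here. The other 5 did not come out as whole reads, 3 for Irf1 and 2 for Gbp2. For Irf1 they correspond to 1652, 1438 and 2144 reads in WT_TAM replicates 1 to 3, against 6943, 3791 and 4723 reads in the table used here, and replicate 4 has 926 in both. For Gbp2 they correspond to 4532 and 4330 reads in replicates 2 and 3, against 3839 and 3993. The cause was not tested.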
